A study of Arabidopsis thaliana with 19 samples.

Results

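The loci described here are 125 of the 33201 loci measured in sorted Arabidopsis root tip cells, namely those whose transcript level fell from 4 through 5 to 6 days of seedling age. A locus was a member when its mean was at least 5 FPKM over 19 libraries, its 4D mean exceeded its 5D mean, its 5D mean exceeded its 6D mean, every 6D value lay below every 4D value, and the 4D mean was at least 2 times the 6D mean. FPKM, fragments per kilobase of transcript scaled to the mapped reads of the library, is a level per transcript length. Of 12905 loci meeting the 5 FPKM mean, 1693 had falling means, 715 of these had 6D values entirely below their 4D values, and 126 also met the 2-fold condition. 1 of these, AT4G36430, was left out by name, and no locus met the other ground for leaving one out, that all 8 values up to 4D 16H lay above the 11 later ones. Members were thus chosen by their 4D, 5D and 6D values (and by the mean over all libraries), which are therefore given below as a description and carry no test.

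All libraries came from seedlings of the PET111:GFP line, grown at 22 °C on 1× MS medium with 1% sucrose under 16 h of light and 8 h of dark. Root tips of about 1 mm were turned into protoplasts, and the cells without GFP were sorted. PET111:GFP is described by the study as a marker of the differentiated columella, the gravity-sensing centre of the root cap, and its GFP-negative cells as mostly stem cells. The groups were 4D (4 days, n = 3), 4D 8H (4 days and 8 hours, n = 2), 4D 16H (4 days and 16 hours, n = 3), 5D (n = 3), 5D 8H (n = 3), 5D 16H (n = 2) and 6D (n = 3). No mutant, drug or untreated control belongs to the series, and the methods state that roots of all ages were harvested at one time of day. In such bulk samples, fewer cells of a type and less RNA per cell cannot be told apart.

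Abscisic acid is the hormone of drying seeds and water-stressed tissue, and its receptors release kinases that act on bZIP factors, which bind the sequence core ACGT in the promoters of protective genes. Late embryogenesis abundant proteins and the related RD29A and KIN proteins are classic products of that response, and cold adds a second route through factors that bind the dehydration-responsive element. Brassinosteroids and gibberellins promote cell elongation, while glutathione transferases, reductases and P450 enzymes modify reactive or foreign compounds.

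Depth, estimated from the steps between low FPKM values, ranged from 10510000 to 38850000 fragments in 18 libraries and was 1221000 in 5D 16H replicate 2. Members were lowest in replicate 3 of the 4D libraries in 92 of 125 cases and highest in replicate 2 in 77. The same replicate 3 held the lowest summed level of 11 endodermis markers at 4D, 1110.3 FPKM against 2062 and 2755 in replicates 1 and 2. At 5D that sum was 2383 to 3110.5 FPKM and at 6D 1051 to 1278. The 20 root hair and epidermis markers summed to 933.5 to 1731 FPKM at 4D, 1451 to 2415 at 5D and 1149 to 1344 at 6D, and the 14 xylem markers to 377 to 497, 358 to 625 and 189.8 to 349. For the 16 phloem markers these sums were 41.6 to 62.6, 53.8 to 74.9 and 30.6 to 41.9 FPKM. The 6 root cap markers went otherwise, with 133.6 to 173.6, 116.7 to 150.5 and 110.5 to 190.6 FPKM. The 2 cortex markers summed to 22.0 to 24.6, 26.9 to 29.4 and 22.2 to 25.1 FPKM, so 6D was near 4D. No marker of these cell type lists was at 0 in every library, and 16 meristem regulators summed to 138 to 215 FPKM over all libraries. In 5D 16H replicate 2 the 16 seed storage and oil body genes summed to 531 FPKM, against at most 2.39 in every other library. The part of these shifts in the members' values was not tested. Leaving out replicate 3 at 4D raised the number of members to 259, and leaving out replicate 2 lowered it to 76.

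The fall of the members was mostly a fall from 5D to 6D. The median ratio of the 4D mean to the 6D mean was 2.36 over the 124 members with a 6D mean above 0, with quartiles of 2.14 and 2.66 and a highest value of 10.6. The median ratio was 1.12 from 4D to 5D and 2.03 from 5D to 6D, and 114 of the 124 members fell by the larger factor in the second day. Ratios of 2 to 3 made up 104 members and ratios of 3 or more 20. Only 1 member, CYS2, a gene of the phytocystatins, which inhibit cysteine proteases, had 7 means that fell at every step. It is named after its values were seen. Between the full days the members went different ways: 53 were below their 4D mean at both 4D 8H and 4D 16H, and 42 were above it at both. The highest of the 7 means was at 4D 8H in 53 members, at 4D in 43, at 5D 16H in 17, at 4D 16H in 10 and at 5D 8H in 2. The lowest mean was at 6D in 118 members.

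**Figure D1:**
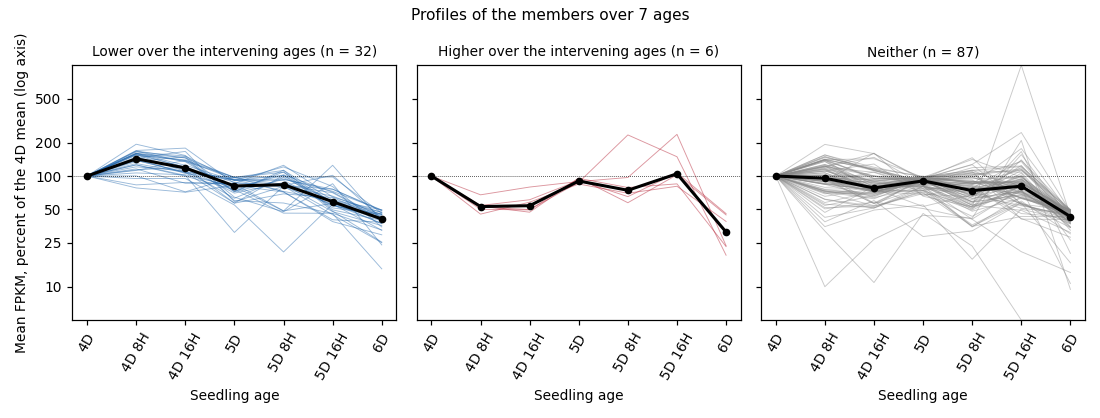
Mean level of each member at 7 ages as percent of its 4D mean (log axis, thin lines; values below 5 or above 1000 are drawn at those limits), with the median of the panel as the black line. Members lower over the intervening ages had a median of 143% at 4D 8H and 58.7% at 5D 16H, members higher had 53% at 4D 8H and 105% at 5D 16H, and all panels ended between 31.2% and 43% at 6D.

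The 10 libraries of 4D 8H, 4D 16H, 5D 8H and 5D 16H took no part in the age conditions, and they were used to ask whether the members also differed between day 4 and day 5 there. The mean of 5D 8H and 5D 16H was compared with the mean of 4D 8H and 4D 16H by limma on log2(FPKM + 1), with p-values adjusted by the Benjamini-Hochberg method over 18087 loci and a threshold of 0.05. All 125 members passed the filter of a mean of 1 FPKM, as the rule requires. Of these, 32 were lower on day 5 (25.6%), against 8.66% of all loci tested and 9.9% of those meeting the 5 FPKM mean. A further 6 members were higher (4.8%), against 4.43% and 5.41%. The median log2 difference was -0.37 for the members and -0.06 for all loci, and 75.2% of members and 59.1% of all loci had a negative difference. The 55 loci that met the mirrored rule, rising from 4D through 6D, held 0 lower and 15 higher calls with a median of 0.33, and 0 of them were lower at an unadjusted p under 0.05. All 5 day 5 values lay below all 5 day 4 values in 11 members (8.8%, against 5.67% of all loci) and above them in 3 (2.4%, against 3.58%). The count of 32 became 13 and 15 when replicate 1 or 2 of 4D 8H was left out, where 1.53% and 2.79% of all loci were called lower. It was 21 without 4D 16H replicate 2, 20 without 5D 8H replicate 3 and 19 without the 5D 16H time point, where the shares of all loci were 4.71%, 5.16% and 3.79%. The touch and wound genes, which mechanical handling induces, moved with this contrast: 7 of 18 were lower and 0 higher, and their summed level was 3905 to 4720.3 FPKM in the 5 day 4 libraries and 2850.3 to 4198 in the 5 day 5 libraries. Other sets moved as well. Of 12 tested jasmonate synthesis genes 7 were lower and 1 higher, and of 45 ribosomal protein genes 21 were lower and 0 higher. Of 15 photosynthesis genes 0 were lower and 9 higher. The part of any of these sets in the members' differences was not tested.

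At the offset of 8 h the members leaned to lower values without any call. From 4D 8H to 5D 8H the difference was negative in 107 of 125 members (85.6%), against 53.5% of all loci, with a median of -0.43 against -0.02. limma called 0 members at the adjusted threshold, where 0.00553% of all loci were called lower, and the lowest adjusted p of a member was 0.0641. At an unadjusted p under 0.05, 52 members (41.6%) were lower and 6 higher, against 6.71% and 5.88% of all loci. Some fits with other settings called 2 to 6 members lower, as the closing section lists. The 6 came from a fit of all 19 libraries, which takes part of its variance from the ages that chose the members.

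At the offset of 16 h the members split. From 4D 16H to 5D 16H, 25 members were lower (20%, against 9.64% of all loci) and 10 were higher (8%, against 3.92%). The median was -0.12, close to the -0.10 of all loci, with members on both sides. Leaving out the shallow library, 5D 16H replicate 2, gave 15 lower, and leaving out 4D 16H replicate 2 gave 11. The shares of all loci in those fits are not given here. A loss of power over all loci thus cannot be told apart from a change particular to the members. By sign alone 69 members were lower at both offsets, 38 were lower at 8 h and higher at 16 h, 14 were higher at both and 4 were higher at 8 h only. No such split was made for all loci. At 16 h 58.4% of members and 60.5% of all loci had a negative difference. The difference between both day differences passed the test in 0 members by limma, with 0.0111% of all loci called and a lowest adjusted p of 0.222, while 10 members were lower (8%) and 28 higher (22.4%) at an unadjusted p under 0.05, against 9.18% and 4.45% of all loci. The median of that difference was 0.25 for the members and -0.09 for all loci.

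**Figure D2:**
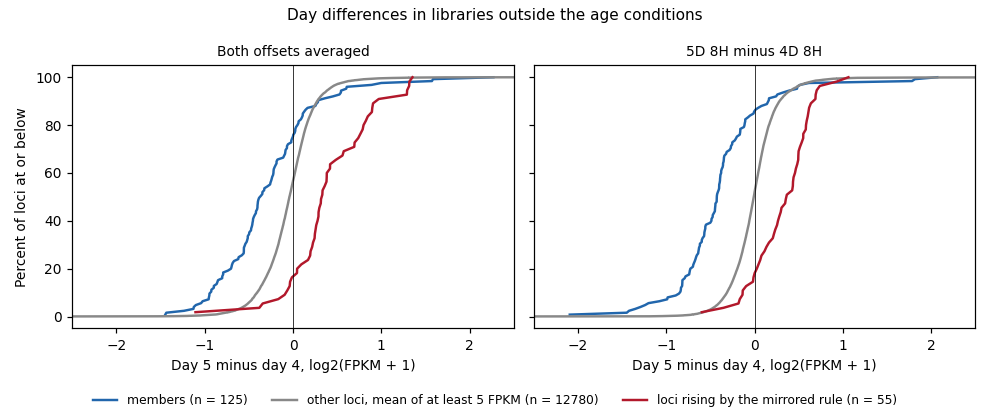
Cumulative share of loci (percent, y axis) by their log2(FPKM + 1) difference from day 4 to day 5 (x axis), for the members, the other loci that meet the 5 FPKM mean and the 55 loci rising by the mirrored rule. The member curve lies left of the others over its lower and middle range, with medians of -0.37 for both offsets averaged and -0.43 at 8 h.

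**Figure D3:**
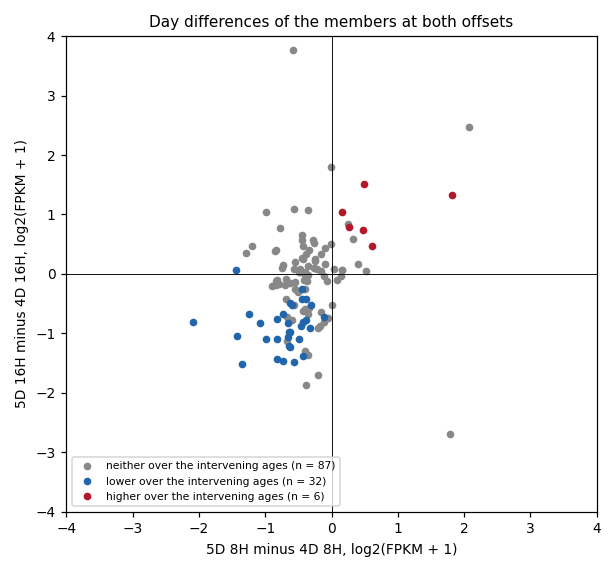
Each point is 1 member, with its log2(FPKM + 1) difference from 4D 8H to 5D 8H on the x axis and from 4D 16H to 5D 16H on the y axis. The 32 members lower over the intervening ages (blue) lie left of 0 on the x axis, and the 6 higher (red) lie above 0 on both axes.

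Steps within a day were less clear. From 4D 8H to 4D 16H limma called 0 members, with 0.00553% of all loci called and a lowest adjusted p of 0.986 among members, although 20 were lower (16%) and 1 higher (0.8%) at an unadjusted p under 0.05, against 2.17% and 2.82% of all loci. The median was -0.23 for the members and 0.01 for all loci. From 5D 8H to 5D 16H, 6 members were lower and 7 higher, against 1.37% and 0.509% of all loci. That count of 13 fell to 0 without 4D 16H replicate 2 or without any of the 5D 8H replicates. It also moved when 4D 8H or 5D 16H kept only 1 library. The shares of all loci in those fits are not given here. A change of power over all loci thus cannot be told apart from a change particular to the members.

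Among 7 stress-protective proteins 3 were lower and 2 higher over the intervening ages. Counts by role or gene list, here and below, stand beside 25.6% lower and 4.8% higher of all members. Of all loci tested 8.66% were lower and 4.43% higher. The roles were chosen after the values were seen, their groups are small, and no difference between roles was tested. LTI78, LEA4-5 and the regulator HB-7 had low means between 4D and 5D, higher means at 5D and their lowest at 6D. LTI78 (RD29A), the low-temperature and desiccation-responsive protein, stood at 189.7, 258 and 193 FPKM at 4D, 112 and 119.9 at 4D 8H, and 133, 120.3 and 139 at 4D 16H. At 5D LTI78 had 205, 197 and 183 FPKM, at 5D 8H 137, 153 and 127, at 5D 16H 258 and 199.6, and at 6D 88, 83.3 and 122. All 5 values at 4D 8H and 4D 16H lay below all 4D values, and at 5D 16H both values were in the range of 4D again. Over the intervening ages, the 10 libraries between full days, LTI78 rose, with a log2 difference of 0.53 ± 0.09 (SE, adjusted p = 0.00986). LTI78 was called under 17 of 19 alternatives, but not without 4D 8H replicate 1 (adjusted p = 0.0542) or the 5D 16H time point (adjusted p = 0.233). The 19 alternatives were other filters, scalings and models, a replicate block, the leaving out of each of the 10 libraries, and the leaving out of 5D 16H. Among the models, the fit of all 19 libraries uses 4D, 5D and 6D, whose values chose the members, so its calls are no independent support. LEA4-5, a late embryogenesis abundant protein of the LEA4 group, stood at 138, 221 and 126 FPKM at 4D, 75.8 and 70.8 at 4D 8H, and 96.1, 93.5 and 92.5 at 4D 16H. At 5D LEA4-5 had 129, 129 and 154 FPKM, at 5D 8H 109, 124 and 107, at 5D 16H 137 and 125, and at 6D 66.9, 55.9 and 66.1. Its 5 day 5 values between full days, 107 to 137 FPKM, all lay above the 5 day 4 values of 70.8 to 96.1, with a log2 difference of 0.54 ± 0.06 (SE, adjusted p = 0.0041), and it was called under all 19 alternatives. HB-7, a homeodomain-leucine zipper factor induced by abscisic acid and drought, stood at 26.3, 74.8 and 38.3 FPKM at 4D, 23.4 and 23.2 at 4D 8H, and 18.3, 22.8 and 27.8 at 4D 16H. At 5D HB-7 had 41.1, 39.3 and 53.2 FPKM, at 5D 8H 21.7, 33.9 and 24.4, at 5D 16H 46 and 49.4, and at 6D 19, 17.2 and 25.9. It was higher on day 5 between full days, with a log2 difference of 0.60 ± 0.14 (SE, adjusted p = 0.0293). Of 19 alternatives 12 called HB-7, but not without 4D 8H replicates 1 or 2, 4D 16H replicate 2, 5D 8H replicate 3, 5D 16H replicate 2 or the 5D 16H time point (adjusted p from 0.0559 to 0.568). It was also not called with all 19 libraries fitted (adjusted p = 0.0752). Without 5D 16H replicate 2, the shallow library with the high seed storage sum, LTI78 was still called and HB-7 was not. The values of both LTI78 and HB-7 overlapped between the days. KIN1, a small stress-induced protein with a near-identical neighbour, KIN2, with which it can share reads, stood at 51.8, 72.6 and 48.1 FPKM at 4D, 33.7 and 50.2 at 4D 8H, and 46, 37.2 and 31.4 at 4D 16H. At 5D KIN1 had 50.3, 48.1 and 63.5 FPKM, at 5D 8H 37.9, 43.6 and 33.7, at 5D 16H 85.6 and 30.7, and at 6D 29, 12.5 and 14.3. Its difference of 0.16 ± 0.26 was not called, and the 5D 16H replicates spanned 30.7 to 85.6 FPKM.

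**Figure D4:**
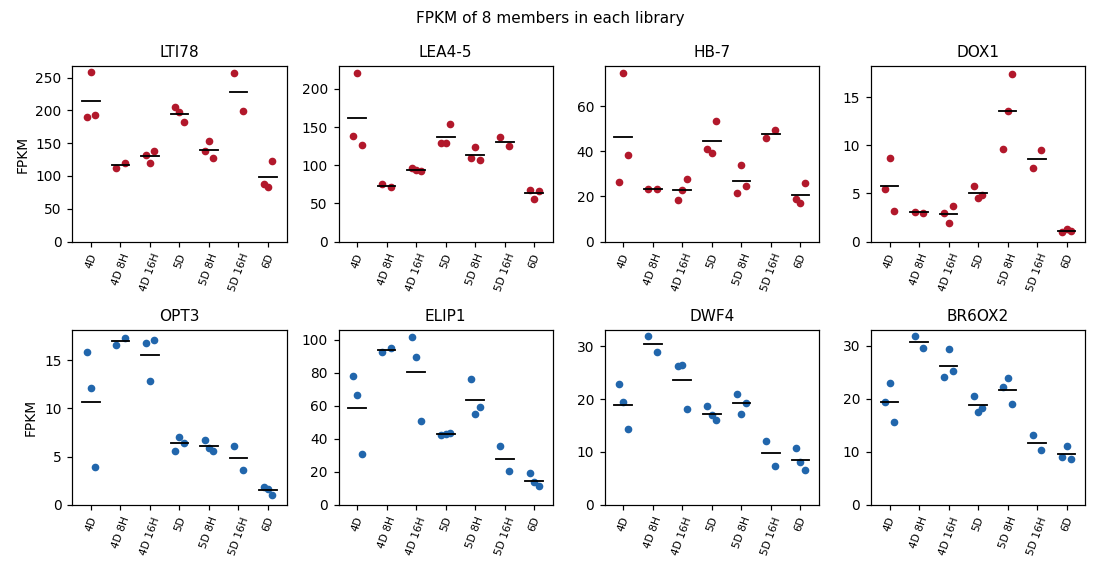
FPKM in each library (points) and the mean of each age (black lines) for 4 members that were higher over the intervening ages (LTI78, LEA4-5, HB-7 and DOX1, red) and 4 that were lower (OPT3, ELIP1, DWF4 and BR6OX2, blue). The red members dip at 4D 8H and 4D 16H, the blue ones peak there, and both reach their lowest mean at 6D.

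Of 16 tested genes of the dehydration and abscisic acid list, 3 were higher over the intervening ages (LTI78, and outside the module RD26, at 0.51, and LTI30, at 0.42) and 0 were lower. In that list only LTI78 and KIN1 were members. COR47, ERD10 and ERD14, the abundant dehydrins, had ratios of the 4D mean to the 6D mean of 1.29, 1.35 and 1.15 and were not. RAS1, a negative regulator of salt tolerance, went the other way: it stood at 46.9, 36.7 and 35.1 FPKM at 4D, 67.4 and 56.6 at 4D 8H, and 54.6, 53.9 and 33.8 at 4D 16H. At 5D RAS1 had 23.7, 25.1 and 34.4 FPKM, at 5D 8H 34.1, 33.3 and 36.3, at 5D 16H 25.2 and 17.8, and at 6D 21.1, 14.5 and 14.2. It was lower on day 5, with a log2 difference of -0.96 ± 0.15 (SE, adjusted p = 0.00857) and some overlap between the days. Under 17 of 19 alternatives RAS1 was called, but not without 4D 8H replicate 1 (adjusted p = 0.0516) or the 5D 16H time point (adjusted p = 0.0669). PYL2, an abscisic acid receptor of the PYR/PYL family, stood at 5.28, 7.49 and 5.47 FPKM at 4D, 7.7 and 8.71 at 4D 8H, and 13.2, 6.99 and 7.17 at 4D 16H. At 5D PYL2 had 4.16, 4.12 and 3.47 FPKM, at 5D 8H 3.06, 2.8 and 2.83, at 5D 16H 5.95 and 4.42, and at 6D 2.32, 1.44 and 0.599. Its 5 day 5 values all lay below its day 4 values, with a log2 difference of -0.95 ± 0.17 (SE, adjusted p = 0.0126). The call for PYL2 held under 17 of 19 alternatives, but not without 4D 8H replicate 1 (adjusted p = 0.0542) or 4D 8H replicate 2 (adjusted p = 0.0571).

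The upstream sequences of 4 members are shown because they carry the ACGT and dehydration-responsive cores that the background names. Each is the 250 bases before the annotated start, 5′ to 3′ on the gene's strand, from the RefSeq genome of assembly TAIR10.1, found by locus tag. Capitals mark the G-box CACGTG, the ABRE-like sequence ACGTGTC and the dehydration-responsive core ACCGAC, each on either strand. LTI78 is chr5:21240467-21240716 on the plus strand, LEA4-5 is chr5:2090431-2090680 on the minus strand, ERD9 is chr1:3398359-3398608 on the minus strand and OPT3 is chr4:9250344-9250593 on the minus strand.
LTI78: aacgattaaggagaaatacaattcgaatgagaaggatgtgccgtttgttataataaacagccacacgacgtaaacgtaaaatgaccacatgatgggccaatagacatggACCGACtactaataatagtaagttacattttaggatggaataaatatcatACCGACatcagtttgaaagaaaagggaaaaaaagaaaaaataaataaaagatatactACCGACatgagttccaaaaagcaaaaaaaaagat
LEA4-5: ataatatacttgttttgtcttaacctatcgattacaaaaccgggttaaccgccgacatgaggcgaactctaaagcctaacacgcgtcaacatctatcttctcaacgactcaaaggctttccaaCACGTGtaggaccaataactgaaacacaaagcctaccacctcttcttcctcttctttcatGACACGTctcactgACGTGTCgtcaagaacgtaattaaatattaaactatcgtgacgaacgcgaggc
ERD9: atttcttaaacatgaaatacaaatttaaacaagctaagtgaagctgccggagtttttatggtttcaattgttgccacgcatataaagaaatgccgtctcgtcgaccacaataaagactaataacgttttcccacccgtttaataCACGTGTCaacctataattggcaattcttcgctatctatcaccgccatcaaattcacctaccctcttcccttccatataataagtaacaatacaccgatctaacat
OPT3: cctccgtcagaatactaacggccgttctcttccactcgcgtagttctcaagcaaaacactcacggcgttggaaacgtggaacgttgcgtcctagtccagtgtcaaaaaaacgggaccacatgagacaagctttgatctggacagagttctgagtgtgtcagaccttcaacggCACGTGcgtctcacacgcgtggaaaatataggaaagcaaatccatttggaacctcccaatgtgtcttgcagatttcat
Of these motifs LTI78 has 3 dehydration-responsive cores, LEA4-5 has 1 G-box and 2 ABRE-like matches, ERD9 has a G-box that overlaps an ABRE-like match, and OPT3 has a G-box. The matches are letters in a window and say nothing of binding.

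Early light-induced proteins, chlorophyll-binding proteins that protect plastids, had their highest mean at 4D 8H (ELIP1) or 4D 16H (ELIP2) and their lowest at 6D. ELIP1 stood at 78.1, 66.6 and 30.6 FPKM at 4D, 92.9 and 94.8 at 4D 8H, and 102, 89.4 and 50.9 at 4D 16H. At 5D ELIP1 had 42.2, 42.7 and 43.4 FPKM, at 5D 8H 76.5, 55.3 and 59.1, at 5D 16H 35.8 and 20.4, and at 6D 19.1, 14 and 11.3. It was lower on day 5, with a log2 difference of -1.02 ± 0.22 (SE, adjusted p = 0.0211), and the days overlapped through the low value at 4D 16H. ELIP1 was called under 13 of 19 alternatives, but not without 4D 8H replicates 1 or 2, 4D 16H replicate 2, 5D 8H replicate 3, 5D 16H replicate 2 or the 5D 16H time point (adjusted p from 0.0515 to 0.287). ELIP2 stood at 18.9, 11.1 and 9.94 FPKM at 4D, 18.9 and 19.8 at 4D 8H, and 22.5, 21.5 and 22.6 at 4D 16H. At 5D ELIP2 had 7.65, 8.7 and 7.07 FPKM, at 5D 8H 13.5, 8.37 and 10.3, at 5D 16H 13.5 and 4.06, and at 6D 8.83, 5.74 and 3.3. All of its day 5 values between full days lay below the day 4 values, with a log2 difference of -1.13 ± 0.26 (SE, adjusted p = 0.0268). Of 19 alternatives 14 called ELIP2, but not without 4D 8H replicates 1 or 2, 4D 16H replicate 2 or 5D 8H replicates 2 or 3 (adjusted p from 0.0584 to 0.0929). The photosynthesis list moved the other way, with 9 of 15 tested genes higher, 0 lower, and a summed level of 46.5 to 76.9 FPKM on day 4 and 94.5 to 116 on day 5 between full days. MT1B, a metallothionein gene, had the largest ratio of all members, 10.6, from scattered values: it stood at 9.98, 27.9 and 51.1 FPKM at 4D, 5.94 and 0 at 4D 8H, and 5.49, 7.64 and 10.7 at 4D 16H. At 5D MT1B had 0, 7.07 and 32.2 FPKM, at 5D 8H 22.7, 4.06 and 10.3, at 5D 16H 21.4 and 103, and at 6D 1.92, 4.2 and 2.31. It was listed at 0 in 2 libraries, and its difference of 2.27 ± 0.67 was not called.

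Among the 9 members placed in the hormone role 5 were lower on day 5 and 0 higher. CYP715A1, among those lower, is annotated only as a P450. The shares were 25.6% and 4.8% of all members and 8.66% and 4.43% of all loci. DWF4 and BR6OX2 encode P450 enzymes of brassinosteroid synthesis, the first at a hydroxylation that limits the pathway and the second at its last steps. DWF4 stood at 22.9, 19.5 and 14.3 FPKM at 4D, 31.8 and 28.8 at 4D 8H, and 26.3, 26.5 and 18.1 at 4D 16H. At 5D DWF4 had 18.6, 17 and 16 FPKM, at 5D 8H 21, 17.2 and 19.2, at 5D 16H 12 and 7.43, and at 6D 10.7, 8.09 and 6.67. At 5D 16H its values were near those of 6D. BR6OX2 stood at 19.4, 23 and 15.6 FPKM at 4D, 31.8 and 29.6 at 4D 8H, and 24, 29.3 and 25.2 at 4D 16H. At 5D BR6OX2 had 20.5, 17.5 and 18.3 FPKM, at 5D 8H 22.3, 23.9 and 18.9, at 5D 16H 13.2 and 10.3, and at 6D 9.01, 11.1 and 8.58. Both had their highest mean at 4D 8H and their lowest at 6D. DWF4 was lower on day 5 with a log2 difference of -0.92 ± 0.15 (SE, adjusted p = 0.00927), and BR6OX2 with a log2 difference of -0.79 ± 0.10 (SE, adjusted p = 0.00512), where all 5 day 5 values lay below the day 4 values, while those of DWF4 overlapped. Under 17 of 19 alternatives DWF4 was called, but not without 4D 8H replicate 1 (adjusted p = 0.0528) or the 5D 16H time point (adjusted p = 0.0937). The call for BR6OX2 held under 18 of 19 alternatives, but not without the 5D 16H time point (adjusted p = 0.07). GA2OX6, which inactivates gibberellins, stood at 138, 107 and 73.3 FPKM at 4D, 115 and 111 at 4D 8H, and 117, 100.1 and 108 at 4D 16H. At 5D GA2OX6 had 88.6, 81 and 84.9 FPKM, at 5D 8H 108, 78.2 and 75.6, at 5D 16H 86.4 and 74.7, and at 6D 55.7, 48.8 and 51.9. It was lower, with overlap between the days and a log2 difference of -0.41 ± 0.11 (SE, adjusted p = 0.0411). GA2OX6 was called under 6 of 19 alternatives, but not without 4D 8H replicates 1 or 2, 4D 16H replicates 1, 2 or 3, 5D 8H replicates 2 or 3, 5D 16H replicate 2 or the 5D 16H time point (adjusted p from 0.0594 to 0.136). GA2OX6 was likewise not called with no filter (adjusted p = 0.0624), with upper quartile scaling (adjusted p = 0.0508), without a variance trend (adjusted p = 0.056) or with all 19 libraries fitted (adjusted p = 0.0558). Of 9 tested genes of gibberellin metabolism 2 were lower and 0 higher. CYP715A1, a P450, was also lower, with a log2 difference of -0.70 ± 0.16 (SE, adjusted p = 0.0284). Of 19 alternatives 13 called CYP715A1, but not without 4D 8H replicates 1 or 2, 4D 16H replicate 2 or 5D 8H replicates 1 or 3 (adjusted p from 0.0636 to 0.112). The call was also lost with the replicate block (adjusted p = 0.0598). MES11, a methyl esterase homologue, had a log2 difference of -0.53 without a call.

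OPT3 was the transporter with the clearest change. It moves iron and copper into the phloem and so reports the shoot's iron state to the root. OPT3 stood at 15.8, 12.1 and 3.92 FPKM at 4D, 16.6 and 17.3 at 4D 8H, and 16.8, 12.8 and 17 at 4D 16H. At 5D OPT3 had 5.58, 7.08 and 6.44 FPKM, at 5D 8H 6.68, 5.85 and 5.63, at 5D 16H 6.08 and 3.64, and at 6D 1.88, 1.69 and 1.05. At 4D 2 of the values were above 12 FPKM and replicate 3 was at 3.92, and all 5D, 5D 8H and 5D 16H values lay between 3.64 and 7.08. Over the intervening ages it fell with a log2 difference of -1.44 ± 0.14 (SE, adjusted p = 0.00305), was called under all 19 alternatives, and its ratio of 4D to 6D was 6.89. The phloem markers summed to 44.0 to 79.6 FPKM in the 5 day 4 libraries between full days and 44.1 to 74.7 in the 5 day 5 libraries, and 0 of 11 tested were called. Their part in the values of OPT3 was not tested. Of 15 tested iron deficiency genes 3 were lower (OPT3, bHLH39 at -1.01 and NAS4 at -0.87) and 1, IRT1, was higher at 0.63, and only OPT3 was a member. The 16 transport members as a whole had 4 lower calls and 0 higher. SUT4, a sucrose transporter of the vacuolar membrane, stood at 10.4, 13.7 and 6.64 FPKM at 4D, 11.8 and 11.9 at 4D 8H, and 8.5, 9.96 and 7.96 at 4D 16H. At 5D SUT4 had 8.33, 8.87 and 9.23 FPKM, at 5D 8H 7.65, 8.91 and 8.87, at 5D 16H 7.57 and 6.91, and at 6D 4.69, 3.94 and 3.75. It was lower, with overlapping values and a log2 difference of -0.35 ± 0.09 (SE, adjusted p = 0.0366). Under 6 of 19 alternatives SUT4 was called, but not without 4D 8H replicates 1 or 2, 4D 16H replicates 1 or 2, 5D 8H replicates 1, 2 or 3, 5D 16H replicate 2 or the 5D 16H time point (adjusted p from 0.0542 to 0.166). It was also not called with no filter (adjusted p = 0.0526), with quantile normalization (adjusted p = 0.0547), with all 19 libraries fitted (adjusted p = 0.0929) or with the replicate block (adjusted p = 0.0659). ATPUP20, a transcribed pseudogene of the purine permease family, and AT2G14520, of the CBS domain family, were the others that were lower, in the fit of 10 libraries. The call for ATPUP20 held under 13 of 19 alternatives, but not without 4D 8H replicates 1 or 2, 4D 16H replicate 2, 5D 8H replicate 3 or the 5D 16H time point (adjusted p from 0.058 to 0.282). ATPUP20 was likewise not called with the replicate block (adjusted p = 0.0512). AT2G14520 was called under 9 of 19 alternatives, but not without 4D 8H replicates 1 or 2, 4D 16H replicates 2 or 3, 5D 8H replicates 1, 2 or 3 or the 5D 16H time point (adjusted p from 0.0513 to 0.156). The call was also lost with no filter (adjusted p = 0.0528) or with the replicate block (adjusted p = 0.0547). 4 MATE efflux genes (ZF14, AT5G52050, AT3G21690 and AT1G33110), SIAR1, an amino acid transporter, and HMA5, a copper-transporting ATPase, were not called. ABCG16, an ABC half-transporter, had a ratio of 9.34 from 4D to 6D: it stood at 13.9, 12 and 4.27 FPKM at 4D, 6.18 and 3.97 at 4D 8H, and 5.49, 4.75 and 7.28 at 4D 16H. At 5D ABCG16 had 4.55, 4.99 and 5.8 FPKM, at 5D 8H 5.54, 3.48 and 3.31, at 5D 16H 11 and 4.47, and at 6D 1.1, 0.994 and 1.14. Its difference was 0.00 ± 0.25.

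Enzymes that act on reactive and foreign compounds made up 16 members, of which 1 was lower and 2 were higher over the intervening ages. RCI3, a cold-inducible class III peroxidase, stood at 524, 602 and 412 FPKM at 4D, 534 and 446 at 4D 8H, and 431, 463 and 526 at 4D 16H. At 5D RCI3 had 509, 489 and 474 FPKM, at 5D 8H 510.2, 443 and 463, at 5D 16H 233 and 338, and at 6D 231, 231 and 187. It was not called over the intervening ages (a log2 difference of -0.40 ± 0.12 (SE, adjusted p = 0.0564)) and was lower from 4D 16H to 5D 16H (log2 difference -0.75 ± 0.17, adjusted p = 0.0233). AT5G16010, of the steroid reductase family, stood at 231, 369 and 276 FPKM at 4D, 173 and 186 at 4D 8H, and 93.4, 153 and 204 at 4D 16H. At 5D AT5G16010 had 243, 196 and 240.1 FPKM, at 5D 8H 81, 122 and 101, at 5D 16H 164 and 216, and at 6D 123, 116 and 122. The lowest mean of AT5G16010 was at 5D 8H. ERD9, a glutathione transferase induced by dehydration, stood at 135, 183 and 156 FPKM at 4D, 115 and 115 at 4D 8H, and 107, 103 and 114 at 4D 16H. At 5D ERD9 had 137, 120.0 and 140.1 FPKM, at 5D 8H 71.5, 97.1 and 80.7, at 5D 16H 125 and 103, and at 6D 67.8, 56.7 and 56.8. Neither was called (-0.22 ± 0.21 and -0.20 ± 0.09). Of 22 tested genes of cytosolic detoxification 1 was lower and 3 higher, and the member among them, GSTU12, a glutathione transferase, was not called, with a log2 difference of -0.70 ± 0.24 (SE, adjusted p = 0.084). AT2G18150, a class III peroxidase, stood at 36.1, 39.98 and 10.1 FPKM at 4D, 19.97 and 18.9 at 4D 8H, and 25.2, 22.5 and 20.8 at 4D 16H. At 5D AT2G18150 had 24.6, 25.2 and 27 FPKM, at 5D 8H 33.5, 24 and 26.1, at 5D 16H 82 and 54.6, and at 6D 7.07, 6.71 and 6.45. Its values at 5D 16H were the highest of any age, and it was higher on day 5 with a log2 difference of 1.00 ± 0.13 (SE, adjusted p = 0.00535). Of 19 alternatives 18 called AT2G18150, but not without the 5D 16H time point (adjusted p = 0.102). DOX1, the alpha-dioxygenase that oxidises fatty acids on attack, stood at 5.5, 8.62 and 3.14 FPKM at 4D, 3.09 and 2.95 at 4D 8H, and 2.95, 1.95 and 3.71 at 4D 16H. At 5D DOX1 had 5.77, 4.53 and 4.86 FPKM, at 5D 8H 9.65, 13.6 and 17.37, at 5D 16H 7.64 and 9.55, and at 6D 0.954, 1.3 and 1.08. The 5 day 5 values, 7.64 to 17.37 FPKM, were all above the day 4 values of 1.95 to 3.71, with a log2 difference of 1.57 ± 0.18 (SE, adjusted p = 0.00462), called under all 19 alternatives, while the 6D values were the lowest of all ages.

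Of 4 members in phenolic and camalexin synthesis 1 was lower and 0 higher. CAD5, which makes the alcohols that lignin is built from, stood at 125, 177 and 107 FPKM at 4D, 118 and 115 at 4D 8H, and 119.6, 102 and 82.3 at 4D 16H. At 5D CAD5 had 133, 119 and 145 FPKM, at 5D 8H 100.4, 102 and 90.7, at 5D 16H 108 and 125, and at 6D 68.8, 66.8 and 61. All 6D values of CAD5 lay below every other library, and it was not called over the intervening ages, with a log2 difference of -0.02 ± 0.10 (SE, adjusted p = 0.914). TT5, the chalcone isomerase of flavonoid synthesis, stood at 54.1, 45.2 and 37.4 FPKM at 4D, 46.7 and 55.7 at 4D 8H, and 77.4, 55.8 and 56.1 at 4D 16H. At 5D TT5 had 44, 44.2 and 39.1 FPKM, at 5D 8H 42.2, 34.5 and 35.4, at 5D 16H 48.7 and 43.8, and at 6D 23.2, 18.6 and 15. It was lower on day 5, with 1 of the day 5 values inside the range of day 4 and a log2 difference of -0.43 ± 0.11 (SE, adjusted p = 0.04). Under 11 of 19 alternatives TT5 was called, but not without 4D 8H replicates 1 or 2, 4D 16H replicate 2, 5D 8H replicates 2 or 3 or 5D 16H replicate 2 (adjusted p from 0.0558 to 0.147). It was also not called with no filter (adjusted p = 0.0606) or without a variance trend (adjusted p = 0.0529). PAD3, the P450 of the last steps of camalexin synthesis, stood at 7.31, 7.43 and 6.9 FPKM at 4D, 8.97 and 8.78 at 4D 8H, and 3.85, 5.65 and 5.92 at 4D 16H. At 5D PAD3 had 7.65, 6.61 and 5.67 FPKM, at 5D 8H 2.85, 4.35 and 4.97, at 5D 16H 15.6 and 8.4, and at 6D 1.68, 1.19 and 1.47. It had differences of opposite sign at the offsets, -0.99 ± 0.28 at 8 h (adjusted p = 0.198) and 1.04 ± 0.28 at 16 h (adjusted p = 0.0422), and the difference between them was not called. Of 18 tested genes of phenylpropanoid and flavonoid synthesis 3 were lower and 0 higher, and of 13 of indole glucosinolate and camalexin synthesis 0 were lower and 4 higher.

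CYP706A1 and CYP706A2, neighbouring paralogs on chromosome 4 that can share reads, are given together. CYP706A2 stood at 18.7, 13.6 and 12 FPKM at 4D, 18.5 and 24 at 4D 8H, and 18, 15.9 and 17.9 at 4D 16H. At 5D CYP706A2 had 10.5, 10.8 and 14.3 FPKM, at 5D 8H 7.39, 7.92 and 6.1, at 5D 16H 22.5 and 14.4, and at 6D 7.25, 3.93 and 6.21. At 5D 8H its values were near those of 6D. CYP706A1 stood at 6.81, 5.14 and 4.12 FPKM at 4D, 7.13 and 8.98 at 4D 8H, and 5.68, 5.45 and 7.01 at 4D 16H. At 5D CYP706A1 had 4.38, 3.63 and 5.31 FPKM, at 5D 8H 2.89, 2.64 and 2.52, at 5D 16H 11 and 5.74, and at 6D 2.84, 1.7 and 2.06. Of the intervening ages both had their lowest mean at 5D 8H and rose to 5D 16H, by 1.23 (adjusted p = 0.036) and 1.29 (adjusted p = 0.0422). CYP706A2 was called over the intervening ages (a log2 difference of -0.69 ± 0.14 (SE, adjusted p = 0.0166)) and CYP706A1 was not (a log2 difference of -0.47 ± 0.17 (SE, adjusted p = 0.0971)). The call for CYP706A2 held under 18 of 19 alternatives, but not without 4D 8H replicate 2 (adjusted p = 0.0721). MYB15, a factor of cold and defence responses that is also in the touch and wound list, moved likewise within day 5: it stood at 36.9, 36.6 and 35 FPKM at 4D, 37.8 and 50.9 at 4D 8H, and 33.4, 37.8 and 37.1 at 4D 16H. At 5D MYB15 had 29.5, 24.1 and 33.8 FPKM, at 5D 8H 19.98, 23.5 and 13.5, at 5D 16H 55.9 and 45.3, and at 6D 16.5, 13.7 and 16.5. Its step from 5D 8H to 5D 16H was 1.39 (adjusted p = 0.036). These 3 steps are among those not called when 4D 16H replicate 2 or any of the 5D 8H replicates was left out.

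Of the 13 transcription factor members 1 was lower (AT1G43000, of the PLATZ family, a log2 difference of -0.80 ± 0.16 (SE, adjusted p = 0.0166)) and 2 were higher, HB-7 and AT5G43540. AT1G43000 was called under 16 of 19 alternatives, but not without 4D 8H replicate 1 (adjusted p = 0.0789), 4D 8H replicate 2 (adjusted p = 0.0563) or the 5D 16H time point (adjusted p = 0.0739). The zinc finger gene AT5G43540 stood at 11.5, 18.6 and 5.73 FPKM at 4D, 5.86 and 6.93 at 4D 8H, and 5.42, 5.79 and 5.69 at 4D 16H. At 5D AT5G43540 had 8.41, 9.38 and 16.4 FPKM, at 5D 8H 9.28, 11.4 and 7.58, at 5D 16H 8.65 and 11.7, and at 6D 0.582, 3.48 and 4.21. Its day 5 values between full days all lay above those of day 4, with a log2 difference of 0.61 ± 0.13 (SE, adjusted p = 0.019). Of 19 alternatives 16 called AT5G43540, but not without 4D 8H replicate 1 (adjusted p = 0.0901) or 4D 8H replicate 2 (adjusted p = 0.0565). AT5G43540 was likewise not called with all 19 libraries fitted (adjusted p = 0.193). MYB74 and MYB102, NAC096, WRKY28, HB40 and BZS1 were not called, with differences from -0.85 to 0.29. Of the signalling members 3 of 12 were lower. IQD12, a calmodulin-binding scaffold of the IQ67 family, stood at 15.7, 18 and 8.21 FPKM at 4D, 22.9 and 24.6 at 4D 8H, and 29.4, 25.4 and 20.14 at 4D 16H. At 5D IQD12 had 11.1, 11.6 and 13.2 FPKM, at 5D 8H 16.8, 17.5 and 18.18, at 5D 16H 7.48 and 10.6, and at 6D 7.31, 7.32 and 4.98. It was lower, with no overlap between the days and a log2 difference of -0.90 ± 0.12 (SE, adjusted p = 0.00552). Under 18 of 19 alternatives IQD12 was called, but not without the 5D 16H time point (adjusted p = 0.0646). AT1G72940, a TIR domain protein of the immune receptor class, stood at 14.2, 13.7 and 9.14 FPKM at 4D, 15.6 and 18.6 at 4D 8H, and 12.9, 12.5 and 14.7 at 4D 16H. At 5D AT1G72940 had 12.9, 11.2 and 11.5 FPKM, at 5D 8H 11.2, 9.63 and 10.4, at 5D 16H 4.99 and 6.79, and at 6D 4.53, 4.83 and 3.85. Over the intervening ages it had a log2 difference of -0.87 ± 0.10 (SE, adjusted p = 0.00487) and a call under all 19 alternatives. AT5G39670, an EF-hand calcium-binding protein, was lower by a larger but more variable difference (a log2 difference of -1.23 ± 0.32 (SE, adjusted p = 0.0398)). The call for AT5G39670 held under 9 of 19 alternatives, but not without 4D 8H replicates 1 or 2, 4D 16H replicate 2, 5D 8H replicates 1, 2 or 3, 5D 16H replicate 2 or the 5D 16H time point (adjusted p from 0.0677 to 0.134). The call was also lost with no filter (adjusted p = 0.0663) or with the replicate block (adjusted p = 0.0729).

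The member of highest level encoded a protein of the lipid transfer family. AT3G22600 stood at 1128, 1360.1 and 799 FPKM at 4D, 874 and 744 at 4D 8H, and 722, 806 and 790.2 at 4D 16H. At 5D AT3G22600 had 1007, 888 and 1056 FPKM, at 5D 8H 977, 868 and 828, at 5D 16H 726 and 777, and at 6D 508, 468 and 453. Its difference over the intervening ages was 0.05 ± 0.08, while all 6D values lay well below every other library. Among 15 lipid, sugar and amino acid genes 6 were lower and 0 higher. AT5G03610, a GDSL lipase, stood at 101, 112 and 79.1 FPKM at 4D, 133 and 144 at 4D 8H, and 94.3, 119 and 94.4 at 4D 16H. At 5D AT5G03610 had 84.8, 78.6 and 106 FPKM, at 5D 8H 85.8, 100.2 and 88.1, at 5D 16H 73.5 and 68.2, and at 6D 57.5, 46.9 and 39.3. Between the days it had a log2 difference of -0.56 ± 0.09 (SE, adjusted p = 0.00759). AT5G03610 was called under 18 of 19 alternatives, but not without the 5D 16H time point (adjusted p = 0.0679). MGDC (MGD3), which makes galactolipid that replaces phospholipid when phosphate is short, stood at 12.8, 10.4 and 8 FPKM at 4D, 11.5 and 12.2 at 4D 8H, and 12.5, 10.8 and 14.2 at 4D 16H. At 5D MGDC had 6.34, 5.28 and 6.13 FPKM, at 5D 8H 8.28, 6.87 and 6.37, at 5D 16H 5.88 and 7.42, and at 6D 3.16, 4.88 and 4.95. Over the intervening ages it had a log2 difference of -0.74 ± 0.11 (SE, adjusted p = 0.00715) and no overlap between the days. Of 13 tested phosphate starvation genes 2 were lower and 2 higher. GAD4, a glutamate decarboxylase that makes GABA, stood at 63, 51.5 and 54.2 FPKM at 4D, 43.7 and 63 at 4D 8H, and 34.2, 44.4 and 81.7 at 4D 16H. At 5D GAD4 had 31.3, 28.6 and 32.5 FPKM, at 5D 8H 11.1, 13.4 and 10.3, at 5D 16H 45.3 and 17.5, and at 6D 18.8, 14.7 and 21.2. Its 5D 8H values lay far below those of 4D 8H and its 5D 16H values overlapped those of 4D 16H, with a log2 difference of -1.45 ± 0.30 (SE, adjusted p = 0.0192). Of 19 alternatives 17 called GAD4, but not without 4D 8H replicate 1 (adjusted p = 0.0597) or 4D 8H replicate 2 (adjusted p = 0.0806). CXE18, a carboxylesterase, and SIP1, a seed imbibition protein of raffinose metabolism, were also lower. Under 18 of 19 alternatives CXE18 was called, but not without the 5D 16H time point (adjusted p = 0.179). The call for SIP1 held under 4 of 19 alternatives, but not without 4D 8H replicates 1 or 2, 4D 16H replicates 1 or 2, 5D 8H replicates 1, 2 or 3, 5D 16H replicate 2 or the 5D 16H time point (adjusted p from 0.0632 to 0.436). It was also not called with a pseudocount of 0.1, with no filter, with upper quartile scaling, with quantile normalization, without a variance trend or with all 19 libraries fitted (adjusted p from 0.0513 to 0.0738). AT1G34490, of the membrane-bound acyltransferase family, had a ratio of 4.00 and a log2 difference of -0.80 ± 0.20 (SE, adjusted p = 0.0317). AT1G34490 was called under 9 of 19 alternatives, but not without 4D 8H replicates 1 or 2, 4D 16H replicate 2, 5D 8H replicates 2 or 3, 5D 16H replicate 2 or the 5D 16H time point (adjusted p from 0.0655 to 0.248). AT1G34490 was likewise not called with no filter (adjusted p = 0.054), with all 19 libraries fitted (adjusted p = 0.0685) or with the replicate block (adjusted p = 0.0574). Among 8 cell wall and protease genes 3 were lower, including AT3G43270, a pectin methylesterase family gene, which stood at 5.95, 5.8 and 2.98 FPKM at 4D, 7.6 and 8.61 at 4D 8H, and 7.84, 7.52 and 6.94 at 4D 16H. At 5D AT3G43270 had 3.97, 4.29 and 5.18 FPKM, at 5D 8H 5.71, 6.13 and 5.97, at 5D 16H 3.8 and 4.09, and at 6D 1.69, 2.17 and 1.26. Between the days it had a log2 difference of -0.58 ± 0.08 (SE, adjusted p = 0.00604) and no overlap. Of 19 alternatives 18 called AT3G43270, but not without the 5D 16H time point (adjusted p = 0.057). AT1G43910, an AAA-type ATPase outside these groups, stood at 62.7, 56 and 38.4 FPKM at 4D, 82.6 and 83.8 at 4D 8H, and 61.4, 70.8 and 56.4 at 4D 16H. At 5D AT1G43910 had 49.5, 42.5 and 45.9 FPKM, at 5D 8H 43, 43.4 and 38.5, at 5D 16H 35 and 23.5, and at 6D 22.2, 21.1 and 15.4. Over the intervening ages it had a log2 difference of -1.04 ± 0.11 (SE, adjusted p = 0.00375) and no overlap.

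Members with short or non-coding transcripts had values that few fragments can set. Of the 125 loci 118 are annotated as protein coding, 2 as transcribed pseudogenes, 2 as small nucleolar RNA, 1 as small nuclear RNA and 1 as other RNA, and AT4G34588 had no entry. 4 have transcripts under 300 nucleotides, which FPKM scales up strongly. SNOR108 stood at 174, 89.2 and 166 FPKM at 4D, 0 and 111 at 4D 8H, and 126, 70.3 and 61.7 at 4D 16H. At 5D SNOR108 had 27.7, 20.3 and 74.1 FPKM, at 5D 8H 94.3, 23.3 and 19.8, at 5D 16H 164 and 0, and at 6D 44.1, 0 and 26.6. At 4D 8H and at 5D 16H a 0 stands beside one of its higher values. SNOR37-2 stood at 20.5, 38 and 27.2 FPKM at 4D, 18.22 and 0 at 4D 8H, and 0, 9.37 and 0 at 4D 16H. At 5D SNOR37-2 had 29.6, 0 and 9.87 FPKM, at 5D 8H 19.98, 0 and 0, at 5D 16H 0 and 0, and at 6D 0, 0 and 0. It was listed at 0 in every library of 5D 16H and 6D. U12, an RNA of the minor spliceosome, stood at 9.16, 14.2 and 8.16 FPKM at 4D, 5.46 and 4.41 at 4D 8H, and 17.7, 2.81 and 4.92 at 4D 16H. At 5D U12 had 0, 3.25 and 22.2 FPKM, at 5D 8H 5.94, 3.72 and 3.16, at 5D 16H 4.36 and 0, and at 6D 0, 0 and 4.25. These 3 were listed at 0 in 3, 11 and 4 libraries, and none of them was called. AT1G15405, an other RNA of high rank by mean, owed that rank to 1 library: it stood at 6.26, 8.52 and 5.72 FPKM at 4D, 8.16 and 4.13 at 4D 8H, and 15.6, 3.67 and 13.8 at 4D 16H. At 5D AT1G15405 had 8.28, 2.43 and 2.76 FPKM, at 5D 8H 3.87, 2.79 and 4.14, at 5D 16H 8.97 and 2016, and at 6D 1.98, 1.43 and 5.56. Without that library its difference changed sign, from 1.59 to -0.33. CYP96A14P, named as a P450 pseudogene, stood at 15.1, 11 and 7.2 FPKM at 4D, 19.6 and 23.5 at 4D 8H, and 19, 15.9 and 16.2 at 4D 16H. At 5D CYP96A14P had 7.42, 8.82 and 7.78 FPKM, at 5D 8H 14, 11.2 and 12.4, at 5D 16H 5.55 and 5.44, and at 6D 3.26, 5.32 and 4.67. It had the smallest p of all members over the intervening ages, with a log2 difference of -1.1 ± 0.09 (SE, adjusted p = 0.00255) and no overlap between the days. The counts of 32 lower and 6 higher were the same over annotated members with transcripts of at least 300 nucleotides. Of the 17 members highest at 5D 16H, 13 remained highest there from replicate 1 alone.

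Members lay on all 5 chromosomes. Chromosomes 1 to 5 held 25%, 16.1%, 17.7%, 16.1% and 25% of the 124 annotated members, against 25.8%, 15.05%, 19.97%, 15.1% and 24.1% of loci meeting the 5 FPKM mean. 6 pairs lay at most 2 places apart in the annotation. RAS1 (chr1:3240531-3241863) and SUT4 (chr1:3243986-3247216) point away from each other and were both lower. AT1G60730 and AT1G60750, related NAD(P)-linked oxidoreductases on 1 strand (chr1:22357976-22363854 in all), had means of 66 and 77.6 FPKM over 19 libraries and were not called. The other pairs were PES1 with AT1G54575, AT1G61260 with U12, AT3G17110 with AT3G17130, and the CYP706A pair. The longest annotated transcript had a median of 1464 nucleotides in members and 1711 in loci meeting the 5 FPKM mean, and 70.2% against 52.7% had a single annotated transcript. The 3 members nearest the 2-fold limit were TPS1, MES11 and AT2G41050 with ratios of 2.00, 2.01 and 2.01, and the 3 loci nearest outside were AT1G78860, HA3 and UGT71C5 with 4D means of 8.11, 6.29 and 11 FPKM and 6D means of 4.06, 3.15 and 5.52.

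Promoters of the 118 protein-coding members were searched from 250 bases before to 50 bases after the annotated start, on both strands, for 15 motifs. The share with a match is given for members, then for 12687 promoters of loci meeting the 5 FPKM mean, then for all 26408. The G-box CACGTG was in 11.02%, 9.45% and 7.78%, and the ABRE-like ACGTGTC, which overlaps it in CACGTGTC, in 7.63%, 5.29% and 4.41%. The W-box TTGACT was in 32.2%, 22.8% and 21.9%, the W-box TTGACC in 14.4%, 14.9% and 14.2%, and the TATA sequence TATAAA in 62.7%, 53.3% and 52.7%. A pair of motifs known from ribosomal and growth genes had smaller shares in members: TGGGCC (site II) in 7.63%, 19.5% and 15.7%, and the telo-box AAACCCTA in 1.69%, 5.42% and 6.18%. The as-1 core TGACGT was in 11.9%, 9.69% and 9.21%, the heat shock pair GAANNTTC in 8.47%, 11.2% and 11.5%, and the evening element AAATATCT in 5.08%, 5.96% and 5.74%. The dehydration-responsive core ACCGAC was in 5.93%, 6.83% and 5.72%. The GCC-box GCCGCC, the E2F core TTCCCGC, the mitosis-specific core CCAACGG and the phosphate response sequence GNATATNC were each in 0.847% to 5.93% of member promoters, against 1.24% to 6.27% of those meeting the 5 FPKM mean. Of the 17 members with a G-box or ABRE-like match in the 250 upstream bases, 3 were lower and 1, LEA4-5, was higher over the intervening ages. Among all 118 members searched, which include these 17, 31 were lower and 6 higher. Whether matches go with calls was not tested. These shares are descriptions without a test.

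**Figure D5:**
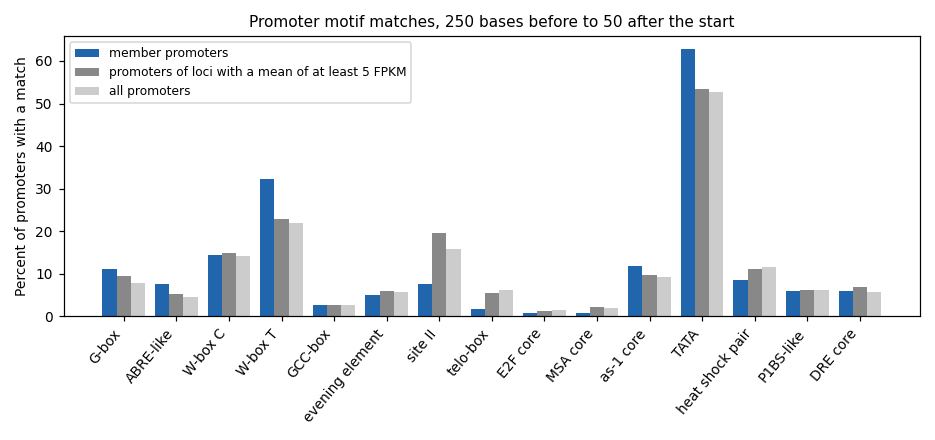
Percent of promoters with at least 1 match (y axis) for 15 motifs, in 118 member promoters (blue), 12687 promoters of loci meeting the 5 FPKM mean (grey) and all 26408 (light grey). Member bars stand above the others for the W-box T and TATA, at 32.2% and 62.7%, and below for site II, at 7.63%.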

How the data were processed

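Levels were analysed as FPKM in 33201 loci and 19 libraries, a table the authors deposited. Per the labels libraries were made with a TruSeq Stranded mRNA kit, and the submitters' processing notes name TopHat, Cufflinks and TAIR10, without versions. The study's methods instead refer the time course to its preparation for sorted stem cells, a SMART-Seq low-input kit. Which kit was used cannot be told here. Since FPKM keeps no counts, an estimate of depth (1221000 to 38850000 fragments) was made from what 1 fragment is worth in low values, and precision rests on replicates, described in the methods as biological.

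Members were found by the rule given at the start of the report. The 4D 8H, 4D 16H, 5D 8H and 5D 16H libraries were compared on the scale of log2(FPKM + 1) by limma (version 3.58.1, R 4.3.3), with a variance trend and Benjamini-Hochberg adjustment at 0.05 over 18087 loci averaging 1 FPKM or more. The log2 scale with a pseudocount of 1 understates changes of low genes. The fit was tested on simulated data with 200 changed loci, where it recovered 92% of changes of 1 log2 unit. There the noise was normal with the same spread in every library. Changed loci averaged at least 5 FPKM and shifted alike at both offsets. The 92% thus does not cover smaller changes such as the members' median of -0.37, unlike offsets or a shallow library. Tables were handled in Python 3.11.15 with pandas 2.3.3 and numpy 2.4.6. Positions, transcript lengths and sequences came from RefSeq TAIR10.1 by locus tag, which matched 124 members. 

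Members and gene lists were chosen with earlier results of these data known. Named were the 10 members each of highest mean, largest 4D to 6D ratio and smallest p, up to 5 with the largest rise, members of gene lists, those at the 2-fold limit and neighbours, 45 in all. The other members named, and the roles, were chosen after their values were seen. In gene lists 439 of 516 symbols matched by symbol and 50 by synonym. Alternatives changed the pseudocount, filter, scaling, variance model, libraries fitted and rule, added a replicate block, or left out each library in turn.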

Additional observations from a re-analysis of the deposited data

How the results depend on the processing

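All 32 members lower and all 6 higher over the intervening ages kept their sign in every alternative fit. Leaving out 1 library gave 13 to 46 lower (where 1.53% to 19.8% of all loci were lower) and 3 to 10 higher, and with 5D 16H dropped altogether, which was added after seeing the data, there were 19 and 4. At the 8 h offset, where 0 members were called, 2 were lower with a mean of at least 5 FPKM, 3 with quantile normalization, 6 with all 19 libraries fitted, 4 without the 5D 16H time point, and 0 to 4 with 1 library left out. From 4D 16H to 5D 16H leaving out 1 library gave 11 to 37 lower. The 13 members changed from 5D 8H to 5D 16H became 20 with a mean of at least 5 FPKM, 4 with no filter, 8 without a variance trend, 22 with all 19 libraries fitted, and 0 to 38 with 1 library left out. The day difference differed between offsets in 2 members with all 19 libraries fitted and in 0 to 18 with 1 library left out. Apart from the lower calls over the intervening ages, shares of all loci called in the alternative fits are not given here. Those counts thus cannot tell a loss of power over all loci from a change particular to the members. The fit of all 19 libraries takes part of its variance from 4D, 5D and 6D, where the rule favoured members of small spread. That variance may be too small for members, so its calls carry no weight of their own. The rule gave 358 members at 1.5 times, 21 at 3 times, 244 at a mean of at least 1 FPKM, and 76 to 259 with 1 library left out. With only the 250 bases before the start, 5 member promoters held site II instead of 9. Site II was then in 4.24% of member promoters, 16.9% of those meeting the 5 FPKM mean and 13.9% of all. In the same order TATAAA was in 51.7%, 47.6% and 47.9%, a smaller gap than in the longer window. TTGACT was in 27.1%, 19.5% and 19.1%. Whether replicate numbers pair the samples cannot be told here. Deviations from group means correlated at -0.03 to 0.13 for 13 pairs of equal number and at -0.15 to 0.15 for 24 other pairs. Of these, 3 and 3 pairs were above 0.1. In groups of 2 libraries the deviations mirror each other, so the pairs are not independent. With the number as a replicate block the intervening ages had 28 lower and 6 higher, the 16 h offset had 19 lower and 0 changed from 5D 8H to 5D 16H.

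Of the 45 members named by rule, 23 were called, 16 of these lost the call in at least 1 alternative and 0 turned. Differences that turned were all uncalled. Without the 5D 16H time point AT1G15405 was at -0.89, AT3G17110 at 0.0389, ABCG16 at -0.34, PAD3 at -0.64, KIN1 at -0.0444 and AT1G60730 at -0.25. CAD5 was at 0.0106 with upper quartile scaling and 0.00826 with quantile normalization, and ABCG16 at -0.0102 with a pseudocount of 0.1. With 1 library left out the ranges were -0.00804 to 0.108 for AT3G22600, -0.33 to 3.5 for AT1G15405, -0.0903 to 0.0433 for CAD5, -0.28 to 0.29 for ABCG16, -0.18 to 0.23 for PAD3, -0.20 to 0.53 for KIN1 and -0.36 to 0.58 for AT1G54575. The cause of these shifts was not tested. Each between-day age rests on 2 or 3 libraries, and no depth is known from counts.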
